A study of Rattus norvegicus with 6 samples.

Results

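The HOX genes and Shox2 were examined in cultured mesenchymal stromal cells on Affymetrix RAE230A arrays. These are spindle-shaped cells that attach to plastic when mononuclear cells of marrow or, more rarely, of blood are plated. Members were all probe sets whose single platform gene symbol begins with Hoxa, Hoxb, Hoxc or Hoxd and a number, together with those of Shox2. This gave 12 probe sets of 15923 on the array and 10 genes of the 10412 that the array names by a single symbol. The set was selected on measured values, namely the blood minus marrow differences of Hoxa10, Hoxa11, Hoxd8 and Shox2 in these same arrays. All differences of members are therefore given below as a description. Where members are called in a fit over all probe sets, nothing is read from the call. The 6 arrays make 2 groups of 3. The peripheral blood cultures (PB_MSC) and the bone marrow cultures (BM_MSC) came as 1 culture of each kind from each of the rats S4, S5 and S6. All 3 rats carried a GFP transgene, both kinds of culture were grown in medium with 15% fetal bovine serum, and RNA was taken at passage 2. The strain, age and sex of the animals and the promoter of the transgene are not stated by the labels.

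HOX genes encode homeodomain transcription factors that lie in the A, B, C and D clusters. Within each cluster the genes are expressed along the body axis in the order of their numbers, with low numbers towards the head and high numbers towards the tail and the tips of the limbs. Genes of the same number in different clusters are paralogues and overlap in function. Cultured fibroblasts and stromal cells keep much of the HOX pattern of the body site they came from. Shox2 is a homeobox gene outside the clusters, known in the mouse for the proximal limb skeleton and the sinoatrial node of the heart.

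The array covered the HOX system thinly. Of 39 HOX genes in the RefSeq gene table, 8 were named by a probe set here: Hoxa5, Hoxa10 and Hoxa11 of cluster A, Hoxb7 of cluster B, Hoxc4 and Hoxc8 of cluster C, and Hoxd3 and Hoxd8 of cluster D. The antisense transcript Hoxa11-as, which lies between Hoxa11 and Hoxa13, made the ninth member of the clusters. The named genes fell in the paralogue groups 3, 4, 5, 7, 8, 10 and 11 alone. No gene of the other groups was named, at the low end or, as with 9, 12 and 13, at the high end. The identity of 1 member was less secure than the rest: the gene identifier given for the Hoxa11 probe set was not found in the RefSeq gene table, which also lists Hoxa11 as an older name of Hoxa2. That probe set is therefore called Hoxa11 by the platform's symbol alone. The table likewise lists Hoxa10 as an older name of Hoxa11 and Hoxc8 as one of Hoxc9, while the identifiers of those probe sets point to Hoxa10 and Hoxc8.

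The start regions of the HOX genes with the widest differences are printed because their signals differed in the same direction while their places differ: Hoxa10 and Hoxa11 are neighbours in cluster A and Hoxd8 lies in cluster D. RefSeq start windows of GRCr8, which run from 250 bases before to 50 bases after a transcript start, were held for 6 of the 10 genes, and Hoxa10 has a window for each of its 2 starts. Capitals mark matches to the TATA box TATAAA, the CCAAT box CCAAT, the GC box GGGCGG, the HOX-PBX pattern TGATNNAT or the MEIS and TGIF pattern TGACAG, on either strand.
Hoxa10, chr4:82671441-82671740, minus strand: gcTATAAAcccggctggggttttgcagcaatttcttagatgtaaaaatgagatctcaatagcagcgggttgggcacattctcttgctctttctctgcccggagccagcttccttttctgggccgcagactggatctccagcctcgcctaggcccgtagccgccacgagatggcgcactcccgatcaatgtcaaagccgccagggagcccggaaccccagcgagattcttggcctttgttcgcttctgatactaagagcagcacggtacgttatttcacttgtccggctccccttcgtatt
Hoxa10, chr4:82665873-82666172, minus strand: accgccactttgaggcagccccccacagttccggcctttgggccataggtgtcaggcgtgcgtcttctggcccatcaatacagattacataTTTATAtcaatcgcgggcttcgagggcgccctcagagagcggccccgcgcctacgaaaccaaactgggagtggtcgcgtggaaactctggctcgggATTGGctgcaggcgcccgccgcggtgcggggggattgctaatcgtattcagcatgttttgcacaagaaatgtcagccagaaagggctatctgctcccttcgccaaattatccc
Hoxa11, chr4:82676752-82677051, minus strand: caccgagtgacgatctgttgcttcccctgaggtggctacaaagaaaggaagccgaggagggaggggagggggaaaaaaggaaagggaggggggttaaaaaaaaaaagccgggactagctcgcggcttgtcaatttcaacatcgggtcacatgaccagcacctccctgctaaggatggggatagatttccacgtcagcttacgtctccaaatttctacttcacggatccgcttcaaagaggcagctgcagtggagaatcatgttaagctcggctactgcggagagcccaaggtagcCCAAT
Hoxd8, chr3:80014973-80015272, plus strand: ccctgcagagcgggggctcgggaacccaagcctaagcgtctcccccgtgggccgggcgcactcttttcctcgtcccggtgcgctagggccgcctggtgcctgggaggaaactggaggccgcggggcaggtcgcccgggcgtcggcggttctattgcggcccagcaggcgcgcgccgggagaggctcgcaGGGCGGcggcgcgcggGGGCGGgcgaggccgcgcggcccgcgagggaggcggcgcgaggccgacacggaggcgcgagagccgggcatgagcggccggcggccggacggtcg
Both Hoxa10 windows held the TATA letters, at -248 in the window printed first and at -159 in the other, as 14.2% of all 33469 windows do anywhere, and the window printed second also a CCAAT box, which 37.5% hold. Hoxa11 held a CCAAT box after its start and no TATA box. Hoxd8 held 2 GC boxes, against 33.1% of all windows with any, and had 79% G and C with 49 CpG dinucleotides, where the median window has 51.7% and 7. The HOX-PBX and the MEIS and TGIF patterns, held by 9.1% and 19% of all windows, were not among the letters of these windows. The Hoxa11 and Hoxa11-as starts lie 227 bases apart on opposite strands, and their windows share 274 bases.

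Signals are on the log2 scale, with the base read from the values, and differences are blood minus marrow within a rat, with the mean ± SD over 3 rats. Hoxa10, of the paralogue group that patterns the lower trunk and the upper limb segments in the mouse, stood at 4.04, 4.02 and 4.03 in blood cultures of rats S4, S5 and S6, against 8.84, 8.45 and 9.30 in marrow cultures. The groups did not overlap, and a gap of 4.41 lay between the highest blood and the lowest marrow array. The differences were -4.80, -4.43 and -5.27, or -4.83 ± 0.42 (SD, n = 3), which is 28.5-fold lower in blood cultures. Its blood signal was above only 1.54% of the probe sets of its array on average, and its marrow signal above 64.5%. The background of the arrays is not known, so folds that involve such low signals are approximate. Among 15791 probe sets with values on all arrays, only 2 had a more negative mean difference than Hoxa10, which ranked at 3.

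Hoxa11, the neighbour of Hoxa10 in the cluster, belongs to the paralogue group that is needed in the mouse for the middle limb segment and the kidney. It stood at 4.20, 4.40 and 5.08 in blood cultures, against 7.08, 6.58 and 7.87 in marrow cultures. All 3 blood arrays lay below all marrow arrays, and the difference was -2.62 ± 0.38 (SD, n = 3). Every one of its 6 signals was under the median of all values, 8.18, so the probe set was dim in marrow cultures too. The antisense Hoxa11-as, which starts beside Hoxa11, did not follow it: it stood at 7.21, 8.03 and 7.64 in blood cultures, against 7.27, 7.09 and 6.93 in marrow cultures. Its difference of 0.53 ± 0.52 was positive in S5 and S6, and the groups overlapped through rat S4 at -0.06.

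Hoxd8 and Hoxc8 are paralogues of the central trunk group. Hoxd8 stood at 6.83, 7.89 and 8.58 in blood cultures, against 9.51, 9.25 and 10.08 in marrow cultures, a difference of -1.85 ± 0.73 (SD, n = 3). It was lower in blood cultures in each rat, most of all in S4 at -2.68, and the groups were parted by 0.67. Hoxc8 stood at 3.56, 4.09 and 4.04 in blood cultures, against 5.20, 4.41 and 4.85 in marrow cultures. The groups did not overlap there either, by 0.32, and the difference was -0.92 ± 0.67, but its signal was above only 1.41% of the probe sets of an array in blood and 3.77% in marrow cultures.

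Hoxa5, a cluster A gene of the neck and chest region that is needed for lung development in the mouse, stood at 5.73, 7.54 and 5.72 in blood cultures, against 7.48, 7.91 and 6.89 in marrow cultures. It was lower in blood cultures in each rat, at -1.75, -0.37 and -1.17 in S4, S5 and S6, with a mean difference of -1.10 ± 0.69, yet the groups overlapped because the S5 blood culture was high. Hoxc4, a cluster C gene of the neck region, was level: 7.87, 8.08 and 8.07 in blood cultures and 8.13, 8.05 and 7.75 in marrow cultures, with a difference of 0.03 ± 0.29.

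Hoxb7, the only member from cluster B, varied more between rats than between sources. It stood at 6.67, 7.89 and 3.09 in blood cultures, against 6.38, 5.66 and 4.93 in marrow cultures, and the differences of 0.29, 2.23 and -1.84 had no common sign. Hoxd3, a low-numbered cluster D gene, was at the bottom of the scale on all arrays, with 0.92, 3.59 and 0 in blood cultures and 0, 2.29 and 3.33 in marrow cultures. It was listed at exactly 0 on 1 array of each group, and no fold is given for it.

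The 3 probe sets of Shox2 disagreed in size. The brightest in marrow cultures, 1387349_at, stood at 6.33, 6.58 and 5.74 in blood cultures, against 9.56, 8.89 and 9.31 in marrow cultures, a difference of -3.04 ± 0.65 (SD, n = 3) or 8.21-fold lower in blood cultures. A dimmer one that the platform ties to the same RefSeq transcript, 1368825_at, stood at 4.21, 4.88 and 5.18 in blood cultures, against 7.39, 6.32 and 7.45 in marrow cultures. Its difference was -2.30 ± 0.87, in the same direction in every rat, and neither of these probe sets had overlapping groups. The remaining one, 1375389_at, which the platform ties to an expressed sequence tag, was level at 7.50, 7.77 and 7.78 in blood cultures and 7.88, 8.02 and 7.74 in marrow cultures, with a difference of -0.20 ± 0.22. The gene's difference thus rested on 2 of 3 probe sets. Every other HOX member had a single probe set, so no further disagreement could be seen.

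**Figure D1:**
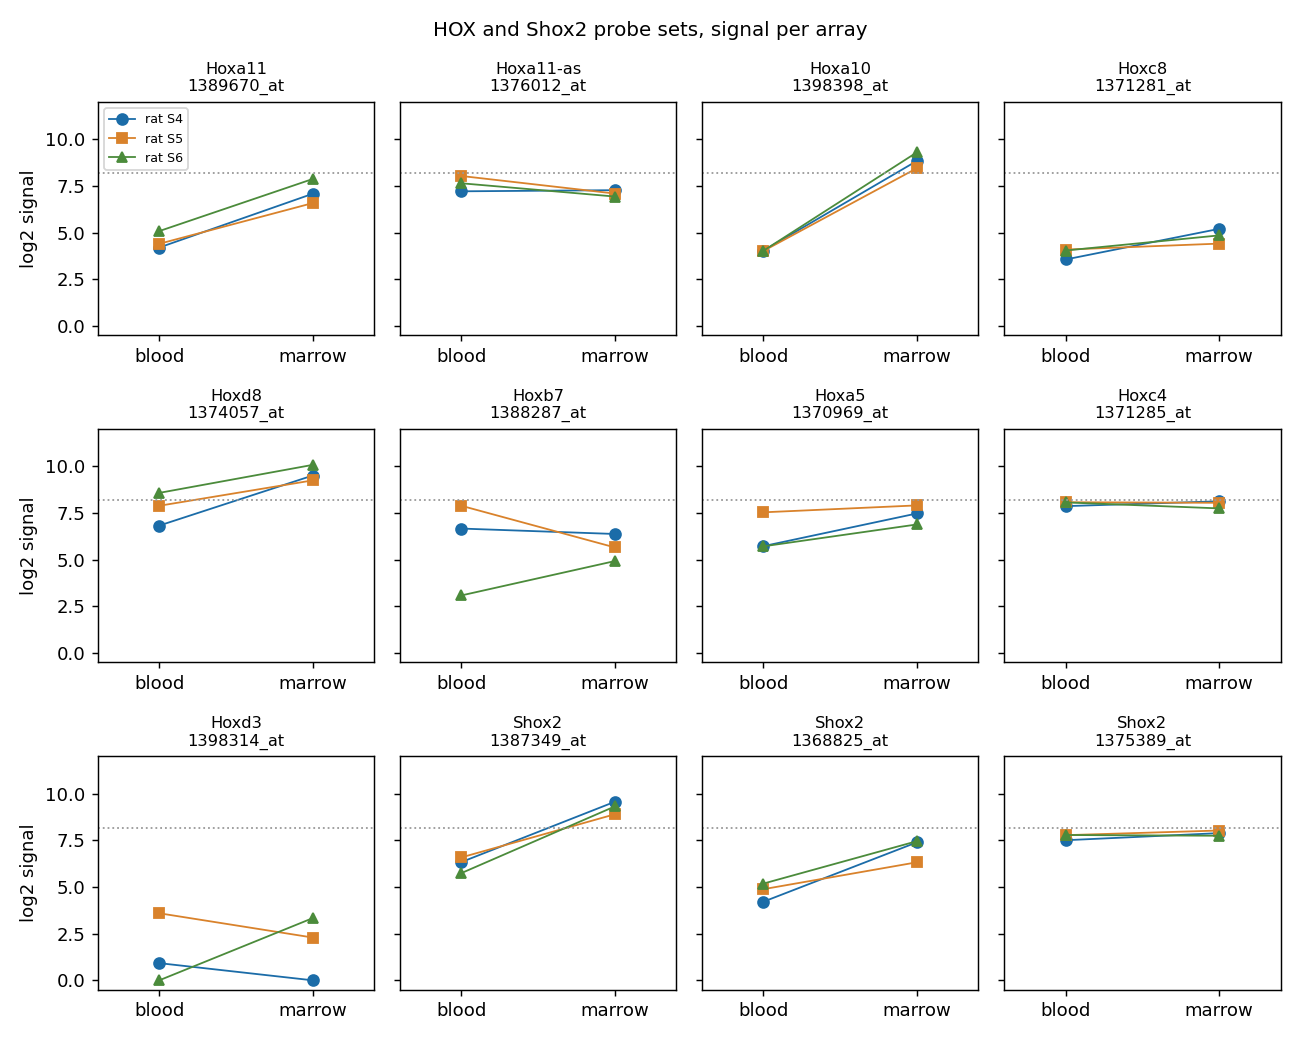
Log2 signal of the 12 HOX and Shox2 probe sets in blood and marrow cultures, with a line joining the arrays of each rat and a dotted line at the median of all values, 8.18. Hoxa10, Hoxa11, Hoxc8, Hoxd8 and 2 of the 3 Shox2 probe sets lie lower in all blood arrays than in any marrow array, while Hoxc4 and the third Shox2 probe set are level.

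Over the 12 probe sets, 6 had all blood arrays below all marrow arrays, and these stood for 5 genes: Hoxa10, Hoxa11, Hoxc8, Hoxd8 and Shox2. The same held for 9.39% of all 15791 probe sets. None had all blood arrays above all marrow arrays, as 6.95% of all probe sets had. Lower in all 3 rats were 7, against 17.1% of all probe sets, and lower by at least 1 in all 3 rats were 5, against 0.652%. Since the set was taken up for this contrast, nothing is read from these shares.

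By paralogue number, the widest differences were those of groups 10 and 11, followed by Hoxd8, while those of Hoxc4, Hoxd3 and Hoxb7 were small or had no common sign. Spearman's rho between the number and the mean difference was -0.74 over the 8 HOX genes, and -0.76 over the 7 without Hoxd3. These genes share the same 6 arrays, and 3 of the 8 come from cluster A. The set was also taken up for the differences of Hoxa10, Hoxa11 and Hoxd8, which enter rho. Moreover, rho counts the Hoxa11 probe set in group 11 by the platform's symbol alone, an identity that is less secure. It is therefore a description only, and nothing is read from it.

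**Figure D2:**
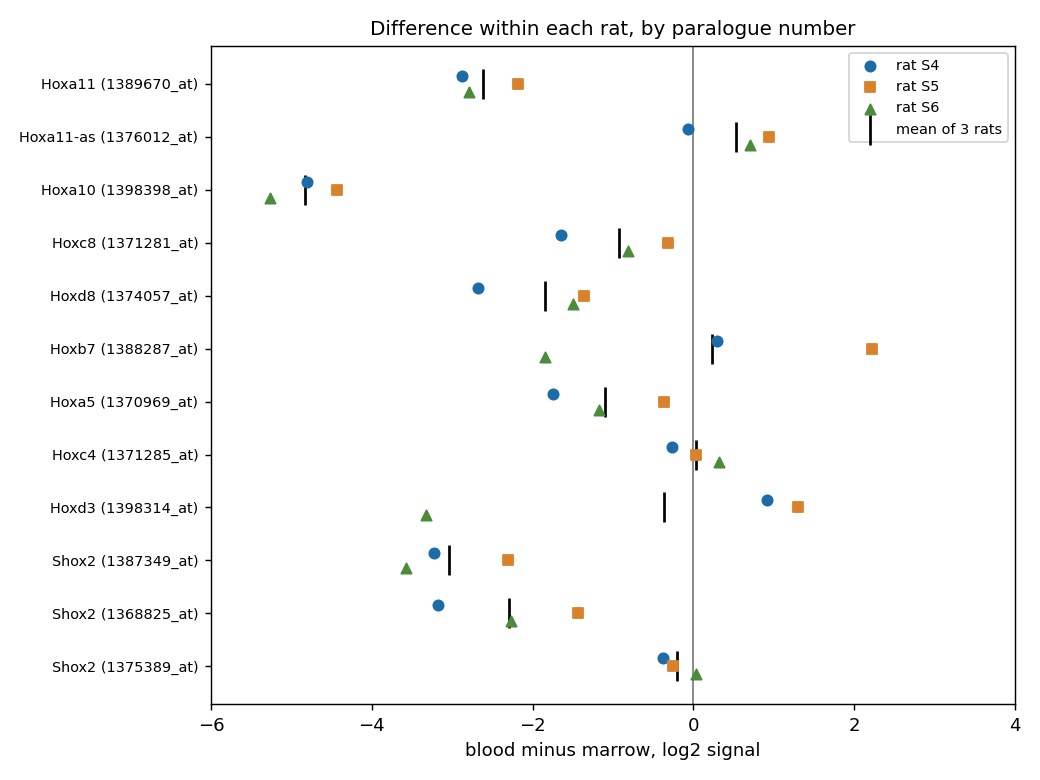
Blood minus marrow difference in log2 signal within each rat (coloured points) and their mean (black bar), ordered by HOX paralogue number from high to low with Shox2 at the bottom. Hoxa10 lies between -5.27 and -4.43 in the 3 rats, and Hoxb7 and Hoxd3 lie on both sides of 0.

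Within the marrow group, rat S5 had the lowest of the 3 signals on 6 of the 12 probe sets, among them Hoxa10, Hoxa11, Hoxd8 and both Shox2 probe sets that differed. Of the 7609 probe sets that passed the filter with no empty cell, 31.3% had S5 lowest among marrow arrays. The S5 differences of Hoxa10, Hoxa11, Hoxd8 and both of those Shox2 probe sets were also the ones nearest to 0, while their signs were those of S4 and S6.

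Across all probe sets, the cultures of both sources were set against each other in limma, in a model holding the animal as a factor, and p-values were adjusted by Benjamini-Hochberg. Probe sets were tested where the signal exceeded the median of all values, 8.18, on all 3 arrays of at least 1 group. Of 7625 tested, 133 were lower (1.74%) and 106 higher (1.39%) in blood cultures at an adjusted p under 0.05. Of the 12 members 3 passed this filter, namely Hoxa10, Hoxd8 and the Shox2 probe set 1387349_at, each through its marrow arrays, and all 3 were called lower, from which nothing is read. In the fit without a filter, which tested all 12 beside 15791 in all, 3 were called lower, against 0.285% of all, and these were Hoxa10, Hoxa11 and the same Shox2 probe set. Hoxd8 was not called there, and the other 8 were not called either. Nothing is read from these calls or their share either, since the set was taken up for this contrast. Without rat S4 the 3 tested members were not called and no probe set on the array was, with differences of -4.85 for Hoxa10, -2.94 for Shox2 and -1.43 for Hoxd8. Without rat S6 Hoxd8 was not called, at -2.02.

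**Figure D3:**
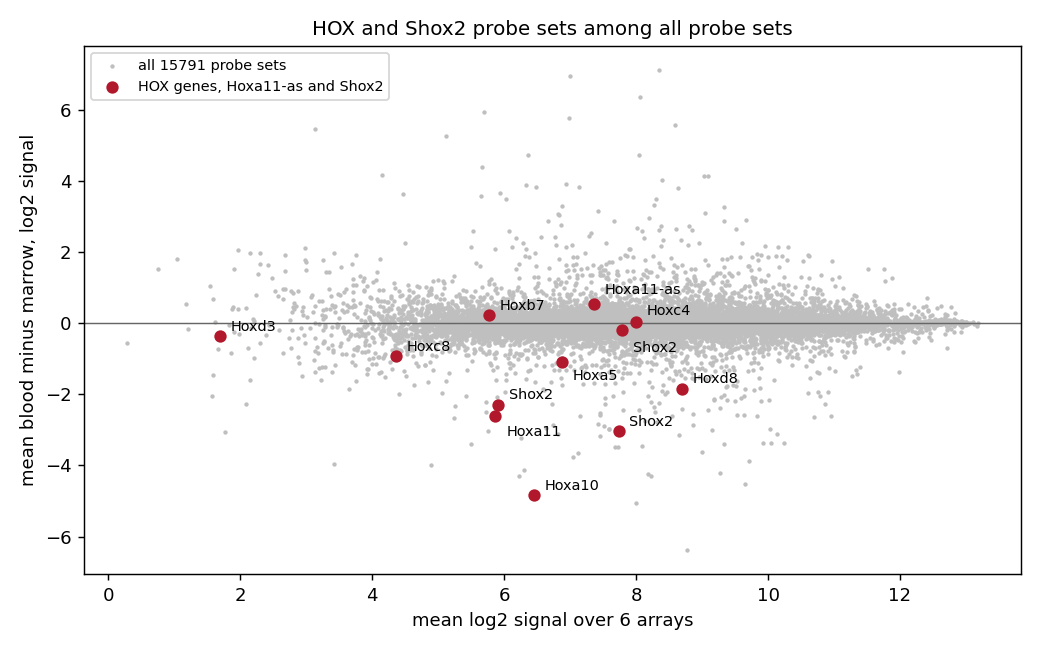
Mean blood minus marrow difference against the mean log2 signal over 6 arrays for 15791 probe sets (grey) and the 12 HOX and Shox2 probe sets (red). Hoxa10 at -4.83 lies among the lowest points, and Hoxc4, Hoxb7, Hoxa11-as and 1 Shox2 probe set lie within the grey band around 0.

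All 6 arrays were of 1 array type. The 2 arrays of a rat were processed on the same fluidics station, so the differences within a rat are also within a station. Within each rat the blood array was on the lower module number and was scanned before the marrow array, so module, scan order and group cannot be told apart. The beta-actin control probe sets at the 3' end exceeded those at the 5' end by 0.24 to 0.38 in blood and by 0.24 to 0.32 in marrow cultures. The summed signal of 11 stromal genes, which the collagens dominate, was 15.67 to 15.93 in blood and 15.50 to 15.87 in marrow cultures on the log2 scale. Single stromal genes had other patterns than the sum. Eng, the endoglin gene, stood at 10.52, 10.27 and 10.72 in blood cultures, against 8.25, 9.16 and 9.25 in marrow cultures, and was called higher with limma (adjusted p = 0.0235, and 0.115 without a filter). Both Col1a1 probe sets were higher in all blood than in all marrow arrays, by 0.71 and 0.47, and did not pass. Among all probe sets, 6.95% were higher in all blood than in all marrow arrays. Lum, the lumican gene, stood at 8.11, 11.92 and 9.79 in blood cultures, against 12.01, 11.72 and 11.88 in marrow cultures, and Dcn and Thy1 were likewise low in the blood cultures of S4 and S6 but not of S5. Lum and Dcn did not pass, and both Thy1 probe sets lay below the filter. The marrow culture of S5 was low in Thy1 too, at 7.68 and 7.39. The summed signal of 14 macrophage and leukocyte genes overlapped, at 13.56 to 14.05 in blood and 12.97 to 14.11 in marrow cultures. That of 6 endothelial genes did likewise, at 9.14 to 9.24 in blood and 9.05 to 9.35 in marrow cultures. The summed signals of the skeletal muscle and the mesothelial lists did not overlap between the groups. Of single probe sets, 9.39% lay lower in all blood than in all marrow arrays. Of 6 listed muscle genes 5 were on the array, summing to 9.79 to 9.99 in blood and 10.20 to 11.36 in marrow cultures. The muscle regulator gene Myod1 stood at 4.56, 4.56 and 3.59 in blood cultures, against 5.81, 9.09 and 10.17 in marrow cultures. The muscle actin gene Acta1 stood at 5.15, 5.20 and 5.15 in blood cultures, against 7.12, 9.10 and 8.09 in marrow cultures. Myod1 and Acta1 lay below the filter, and their adjusted p in the limma fit without it was 0.249 and 0.0735. No muscle gene was called. The 7 mesothelial and epithelial genes on the array summed to 9.83 to 10.02 in blood and 10.28 to 10.74 in marrow cultures, mostly through Msln. With limma Msln was called lower in blood cultures (adjusted p = 0.00548, and 0.0414 without a filter). The keratin genes, Cdh1 and Epcam lay below the filter and differed by -0.01 to 0.14. No marker on these lists was at 0 on any array. Their part in the HOX and Shox2 differences was not tested, and in such bulk RNA fewer cells of a type and less RNA per cell cannot be told apart.

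The genes whose signals followed a member most closely were sought among 5750 genes by Pearson's r over the 6 arrays. The values share arrays and the split into 2 groups, and r takes no account of the size of a difference, so it is a description. For Hoxa10 these were Aqp1, a water channel gene, with r of 0.998 and a difference of -6.38 ± 0.21 (SE), then Ubap2l, Rab9a, Pik3r2 and Mtfr1l with r of 0.997, 0.995, 0.992 and 0.992. Apart from Aqp1 their differences were smaller, from -0.72 for Rab9a to -0.25 for Mtfr1l. With limma Rab9a was called lower (adjusted p = 0.0326), while Ubap2l, Pik3r2 and Mtfr1l did not pass. For Shox2 they were Babam2, Sppl3, Ddt, Cd320 and Colec12, with r of 0.996 to 0.994, and of these only Colec12, a scavenger receptor gene, had a wide difference, at -2.16 ± 0.25. For Hoxd8 they were Mblac1, Trappc12, Marcks, Retreg1 and Dnajb12, with r of 0.980 to 0.962 and differences of -0.46 to -0.13. Probe sets of other genes with r over 0.95 numbered 78 for Hoxa10, 79 for Shox2 and 12 for Hoxd8. The genes named are thus only the closest of many. Among the members themselves, Hoxa10 correlated with the Shox2 probe set 1387349_at at 0.981, with Hoxa11 at 0.966 and with Hoxd8 at 0.871.

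The partners and regulators of HOX proteins were compared in the same fit, with the brightest tested probe set standing for each gene. Over all 5753 genes measured in this way 1.72% were lower and 1.3% higher in blood cultures, and the median difference was -0.01. The HOX cofactors of the TALE class, which bind DNA together with HOX proteins, had 7 of 12 genes measured. With limma none passed, and their median was -0.19. An unadjusted p under 0.05 was found for 1 of the 7, or 14.3%, against 14.7% of all 5753 genes. Meis2 had 9.21 ± 0.33 in blood against 8.46 ± 0.28 in marrow cultures and so differed by 0.75 ± 0.23 (SE, adjusted p = 0.197), which was called without rat S5 at 1.06. Pbx3 and Pbx2, both partners of HOX proteins on DNA, differed by -0.32 ± 0.15 and -0.24 ± 0.12 (adjusted p = 0.391 and 0.424). Meis3 had no value on 1 marrow array and was fitted without it.

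Of 29 chromatin and upstream regulators of HOX clusters, 14 were measured and none passed with limma, while 3 (21.4%) had an unadjusted p under 0.05, against 14.7% of all genes. The median was -0.07 and the range -0.32 to 0.35. Those 3 were Cdx2, a caudal-type activator of HOX genes in the embryo, at 0.35 ± 0.12 (SE, adjusted p = 0.257), Men1, which encodes the partner menin, at -0.32 ± 0.12 (adjusted p = 0.277), and the Trithorax methyltransferase gene Kmt2a at -0.31 ± 0.12 (adjusted p = 0.295). The Polycomb genes measured, among them Eed, Ezh1, Phc2 and Cbx2, differed by -0.14 to 0.16.

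Of 52 limb and trunk patterning genes 23 were on the array and 8 were measured, with a median of -0.12. With limma 2 fell and none rose in blood cultures, where 1.72% and 1.3% of all genes did. An unadjusted p under 0.05 was found for 3 of the 8, or 37.5%, against 14.7% of all genes. Nr2f2, an orphan nuclear receptor gene, had 9.30 ± 0.14 in blood against 10.29 ± 0.08 in marrow cultures and so differed by -0.99 ± 0.12 (SE, adjusted p = 0.0117 with limma). A dimmer Nr2f2 probe set, below the filter, differed by -0.40 ± 0.16. Fgf10, the growth factor gene of limb outgrowth, entered the test through its marrow arrays alone. It had 8.09 ± 0.31 in blood against 8.83 ± 0.15 in marrow cultures and differed by -0.74 ± 0.13 (adjusted p = 0.0409). Neither was called without rat S4 or without rat S6: the adjusted p of Nr2f2 was 0.237 and 0.108, and that of Fgf10 0.347 and 0.239. Without a filter they were 0.071 and 0.149. Fgf10 was also not called under either scaling, at 0.0819 and 0.0782, nor without the rat in the model, at 0.101, nor with a filter on any 3 of 6 arrays, at 0.0586. The limb mesenchyme genes Prrx1 and Prrx2 stood at -0.25 ± 0.23 and 0.20 ± 0.13 and did not pass, and nor did Tbx2, Tbx3, Nr2f1 or Hand2.

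**Figure D4:**
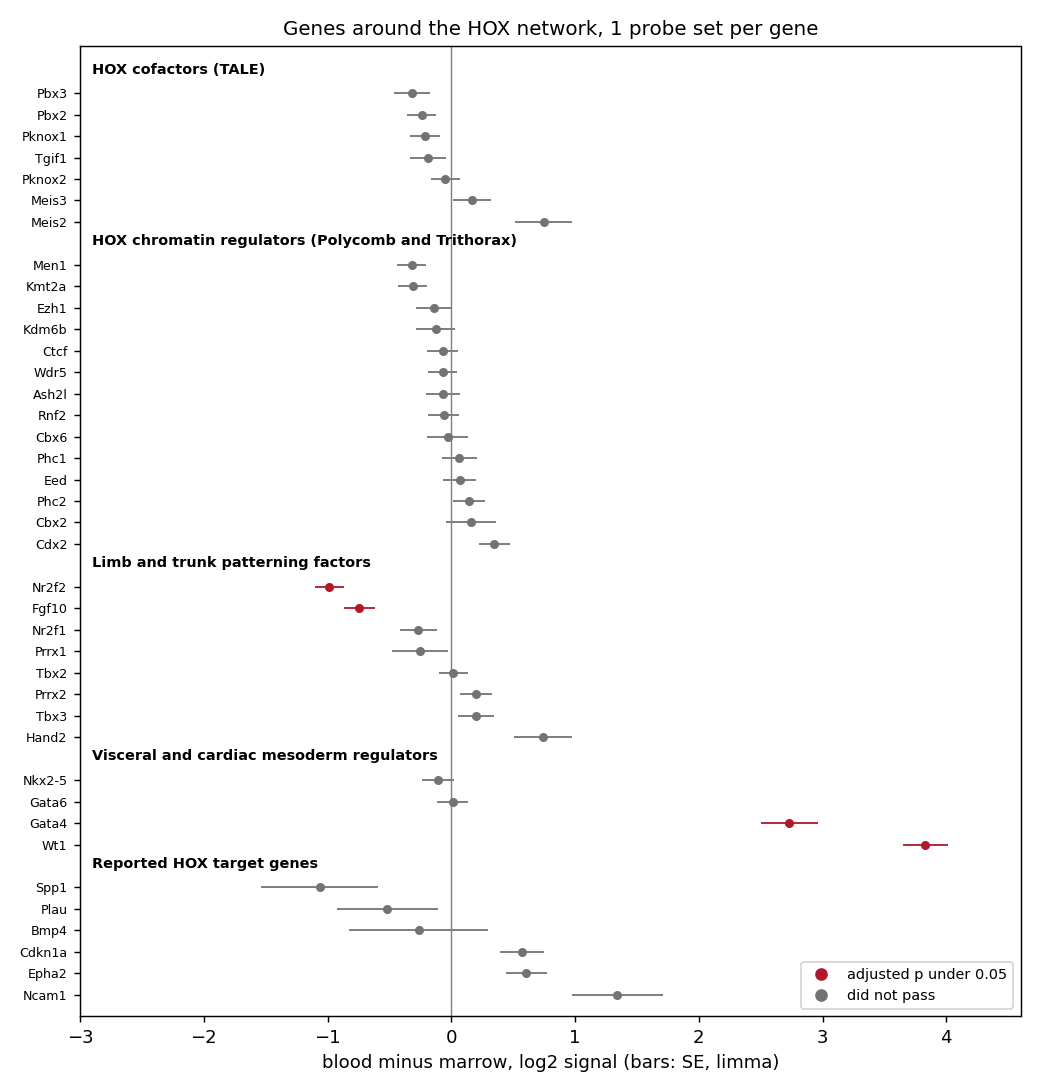
Blood minus marrow difference (log2, bars are the SE from limma) of the measured genes of 5 lists around the HOX network, 1 probe set per gene, with red points for an adjusted p under 0.05. Nr2f2 and Fgf10 lie below 0, Gata4 and Wt1 above it, and no HOX cofactor or chromatin regulator passed.

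Of 15 regulators of visceral and cardiac mesoderm, which act in the patterning of inner organs, 10 were on the array and 4 were measured. In blood cultures 2 of the 4 rose, where 1.3% of all genes did. An unadjusted p under 0.05 with limma was found for the same 2, or 50%, against 14.7% of all genes. They were Wt1 and Gata4, at 3.83 ± 0.18 and 2.73 ± 0.23 (SE, adjusted p = 0.00112 and 0.0035 with limma). Both entered the test through their blood arrays alone, and without a filter the adjusted p of the same probe sets was 0.0227 and 0.0342. Neither passed without rat S4, at adjusted p of 0.132 and 0.278. Each also had a probe set below the filter, which differed by 0.45 ± 0.13 for Wt1 and 0.96 ± 0.19 for Gata4. Gata6 did not pass on its brightest probe set, at 0.01 ± 0.13, while a dimmer tested one differed by 1.83 ± 0.15 (adjusted p = 0.0033). That dimmer one also entered the test through its blood arrays alone, and its adjusted p without a filter was 0.033. The median of the 4 measured genes was 1.37, from which nothing is read, since Wt1 and Gata4 entered through their blood arrays alone. Foxf1, Gata5, Hand1, Isl1, Mef2c and Tcf21 of this list lay below the filter, and their probe sets differed by -1.18 to 0.20. None of 6 measured genes reported elsewhere as HOX targets, out of 16, passed with limma, 3 had an unadjusted p under 0.05 where 14.7% of all genes did, and the median was 0.15. These 3 were Epha2, an ephrin receptor gene, at 0.61 ± 0.17, the adhesion molecule gene Ncam1 at 1.34 ± 0.37 and Cdkn1a, an inhibitor of cell division, at 0.57 ± 0.18 (adjusted p = 0.15, 0.152 and 0.199).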

How the data were processed

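RNA of 6 cultures was measured on 1 array each. The authors' deposited values per probe set are log2 signals as far as the values show (0 to 13.31), since no source used here states the base. Per the submitters' processing notes GCOS was used; how probes were summarised, corrected and normalized is not given in the sources used here. Per the file headers, the instrument setting files give chip type, station, module and scan time. No rescaling and a pseudocount of 0 were applied; 86 empty cells stayed empty and 94 were exactly 0. After removing 57 control probe sets, probe sets above the median of all values on all 3 arrays of at least 1 group were fitted with limma 3.58.1 in R 4.3.3 (lmFit, eBayes, two-sided), rat as a fixed term, since the series' design text pairs the cultures by animal. Deviations of same-rat arrays correlated at -0.25, 0.31 and 0.31. This filter uses the groups; a filter blind to them was run as an added alternative. The fit was tested on simulated data. Of 15923 probe sets 12789 had 1 symbol, 312 several and 2822 none, and none with several held a HOX gene. Named were all members, the 5 genes most like Hoxa10, Hoxa11, Hoxd8 and Shox2 where a probe set of these was tested (Hoxa11 had none), and in each list the genes past the threshold or else the 3 with the smallest p; Meis3, Gata6, Nr2f1, Prrx1, Prrx2, Tbx2, Tbx3 and Hand2, some Polycomb genes and the marker genes printed were named beyond that rule. Members and lists were chosen with earlier results of these data known. Promoter windows are RefSeq's (GRCr8). Work outside R used Python 3.11.15, pandas 2.3.3 and matplotlib 3.10.9. Precision is limited by the number of arrays.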

Additional observations from a re-analysis of the deposited data

How the results depend on the processing

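Against 239 calls over all probe sets, limma gave 89 without a filter, 149 after scaling to a common trimmed mean, 135 after quantile normalization and 144 without the replicate block by rat; leaving out 1 rat gave 0 to 541. A filter on at least 3 of 6 arrays, chosen after seeing the data, gave 175. Of the HOX and Shox2 probe sets 3 were called, and 0 to 3 when 1 rat was left out; Hoxa10 was too dim to be tested under the stricter filter, and Hoxd8 was not called without a filter, under either scaling or without the replicate block. Over the lists 4 genes were called. Without a filter this was 1, partly because another probe set then stands for Wt1, and 2 (Wt1 and Gata4) with the probe sets kept, an alternative chosen after seeing the data. It was 0 to 9 when 1 rat was left out. Leaving out a rat leaves 1 residual degree of freedom. Neither scaling moved the median difference of all probe sets by over 0.1, and both kept the sign of all 12 members. Causes were not tested. Signals below 8.18 have no known background, which limits their folds.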

Other observations

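2 positional genes and 1 listed as a reported HOX target lay below the filter on signal and were picked out here after their values were seen. The forelimb and heart gene Tbx5 had 7.18 ± 1.02 in blood against 5.05 ± 1.08 in marrow cultures (SD, n = 3) and so differed by 2.13 ± 0.56 (SE). The somite and muscle precursor gene Meox2 had 5.84 ± 0.26 in blood against 8.45 ± 1.27 in marrow cultures and differed by -2.61 ± 0.57. The integrin gene Itga8 stood at 9.27, 8.12 and 9.03 in blood cultures, against 7.69, 7.52 and 7.35 in marrow cultures. None of the 3 passed in the limma fit without a filter, with adjusted p of 0.28, 0.213 and 0.169.

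The Hoxa10 signal of the 3 blood cultures spanned only 0.02. Of 259 probe sets whose mean blood signal lay within 0.5 of that of Hoxa10, 1 had a range that small, which was Hoxa10 itself, and the median range was 1.10. Among 243 probe sets at that level in marrow cultures 2 had a range of 0.02 or less.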
